A study of Mus musculus with 10 samples.

Results

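Meiotic entry was described as the step from preleptotene spermatocytes (pL) to the combined early leptotene, leptotene and zygotene spermatocytes (eL/L/Z), gene by gene, in RNA and in chromatin accessibility. The RNA comparison covered 12986 of the 28125 genes in the expression matrix, those with a mean of at least 0.05 per 10000 over the pL and eL/L/Z populations. The accessibility comparison covered 30260 of the 30670 genes in the scATAC-seq matrix, those of the nuclear genome with signal in both populations, and 12966 genes had both values. An RNA difference is given as the log2 ratio of eL/L/Z over pL after adding 0.1 to each level, and an accessibility difference as the log2 ratio of values per 1000000 after adding 1.

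The study profiled nuclei of whole testes by simultaneous scRNA-seq and scATAC-seq, with 1 library per assay from wild-type C57BL/6J mice at 11, 17 and 25 days postpartum (dpp), from 8-week-old Cre/+ mice and from 8-week-old Nfya-CKO mice. Cre/+ mice carry the Stra8-Cre knock-in alone, and in Nfya-CKO mice this Cre removes Nfya in male germ cells. The labels do not say how many animals went into a library. Each matrix holds 1 value per gene and population, pooled over the libraries that held such cells. No difference in it therefore has a replicate check, and no p-value is given for any of them. Nearly all cells compared were wild type. The Nfya-CKO libraries gave 0 pL cells, and 4 eL/L/Z cells in scRNA-seq and 1 in scATAC-seq. The Cre/+ library gave 6 pL and 74 eL/L/Z cells in scRNA-seq.

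Preleptotene spermatocytes are the last premeiotic stage: retinoic acid switches on Stra8, STRA8 acts with MEIOSIN, and the cells replicate their DNA a last time. In leptotene, chromosome axes form and the SPO11 enzyme makes DNA breaks, and in zygotene the homologous chromosomes begin to synapse while the breaks are repaired by strand exchange. NFYA is the DNA-binding subunit of NF-Y, a trimeric factor that recognises the CCAAT box.

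The pL population held 1761 scRNA-seq cells of 45250 in all, with a median of 8161 UMIs, and eL/L/Z held 5705 cells with a median of 2153 UMIs. The pL cells formed 1 cluster, whereas eL/L/Z joined a cluster of 3568 cells (median 1526 UMIs), mostly from 11 and 17 dpp, and one of 2137 cells (median 3051 UMIs), 1822 of them from 25 dpp. The 2 populations differed in origin. Of pL cells 59.3% (95% exact Clopper-Pearson interval 57.0 to 61.6) came from the 11 dpp library and 2.16% (1.53 to 2.95) from the 25 dpp library, whereas 42.6% (41.3 to 43.9) of eL/L/Z cells came from 25 dpp. In scATAC-seq the same names covered 1721 pL and 3886 eL/L/Z cells of 343866, with medians of 25138 and 11259 fragments. These intervals cover counting error only, and because the matrices pool the libraries, stage and library cannot be told apart in any value below.

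Markers fitted the names in part. Stra8 and Kit, the receptor tyrosine kinase of differentiating spermatogonia, had their highest level of all 13 populations in pL. Dmc1, the meiotic strand-exchange recombinase, was highest in eL/L/Z at 2.22 per 10000. The remaining 7 of the 8 markers chosen for eL/L/Z, among them Sycp1, Sycp3 and Hormad1, were higher there than in pL and higher still in the next population. The other markers chosen for pL did not peak there, by a small margin for Dmrtb1. It was at 1.04 per 10000 in differentiating spermatogonia (diff. SpG), its highest, and at 1.03 in pL. Ccnd2 was highest in undifferentiated spermatogonia (undiff. SpG) and Rec8 in round spermatids (RS). Meiosin was highest in the population after eL/L/Z, at 0.29, with 0.28 in eL/L/Z and 0.22 in pL. In scATAC-seq no cell was named pL, and 46.8% of the pL cells carried the name eL/L/Z and 36.8% a spermatogonial name. Of the eL/L/Z cells 39.6% carried their own name in scATAC-seq, 38.1% that of the next stage and 9.26% a spermatogonial name.

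RNA of Sertoli cells and of later germ cells was also higher in the eL/L/Z column. All 16 Sertoli genes of the list were higher in eL/L/Z than in pL, and their summed level was 15.5 per 10000 in pL, 32.2 in eL/L/Z, 14.7 in the next germ cell population (leptotene, zygotene and early pachytene, L/Z/eP) and 163 in Sertoli cells. Among the defining genes, Sox9 was at 0.77 in pL and 1.59 in eL/L/Z, Wt1 at 0.68 and 1.39, and Amh at 0.05 and 0.07. Every one of these defining Sertoli markers was detected in both populations and none was at 0. By scATAC-seq, 7.85% (7.02 to 8.74) of the eL/L/Z cells and 3.72% (2.88 to 4.72) of the pL cells carried the name Sertoli.

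The pachytene and spermatid list summed to 7.51 per 10000 in pL, 18.1 in eL/L/Z and 111 in RS. Prm1, the protamine that packs sperm DNA, was at 0.01 in pL, 0.05 in eL/L/Z and 10.3 in RS, and Acrv1, an acrosomal protein gene, at 0.01, 0.14 and 7.19. Genes of Leydig, peritubular, endothelial, macrophage, fibroblast and red blood cells summed to 1.31 in pL and 2.64 in eL/L/Z. Of the 24 listed, 10 were tested, 9 of them higher in eL/L/Z and 1 lower. For scale, the Leydig gene Insl3 was at 0.02 in pL, 0.10 in eL/L/Z and 177 in the Nfya-CKO somatic cells. These values move with the RNA differences below, and their part in the results was not tested.

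**Figure D1:**
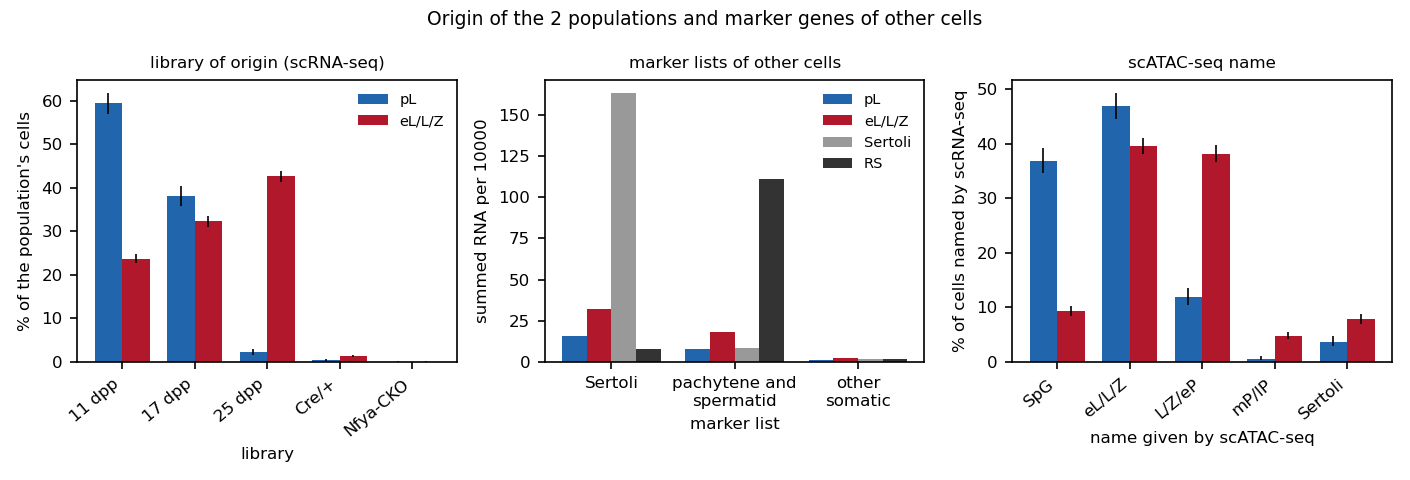
Left, share of the cells of pL (blue) and eL/L/Z (red) that came from each scRNA-seq library, in percent with 95% exact binomial intervals. Middle, summed RNA level per 10000 of 3 marker lists in pL, eL/L/Z, Sertoli cells and RS; right, the scATAC-seq name of cells named pL or eL/L/Z by scRNA-seq. The 25 dpp library gave 42.6% of eL/L/Z cells and 2.16% of pL cells, and the Sertoli list summed to 32.2 in eL/L/Z and 15.5 in pL.

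Most genes past 2-fold in RNA were higher in eL/L/Z. At least 2-fold higher levels in eL/L/Z were found for 672 genes (5.17% of the genes tested) and at least 2-fold lower levels for 90 genes (0.693%). These shares and the 49.2% of all genes tested with a log2 ratio below 0 are the background for the list counts that follow. The median log2 ratio over all genes tested was 0.01, and the central 90% of genes lay between -0.60 and 1.02. Genes of low level gave most of the higher values. Where the mean level reached 0.5 per 10000, 169 genes were at least 2-fold higher and 63 at least 2-fold lower. Over all genes of that level the median log2 ratio was -0.08. Both counts also moved with the pseudocount, to 1335 higher and 203 lower with 0.02, and to 115 and 6 with 0.5.

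**Figure D2:**
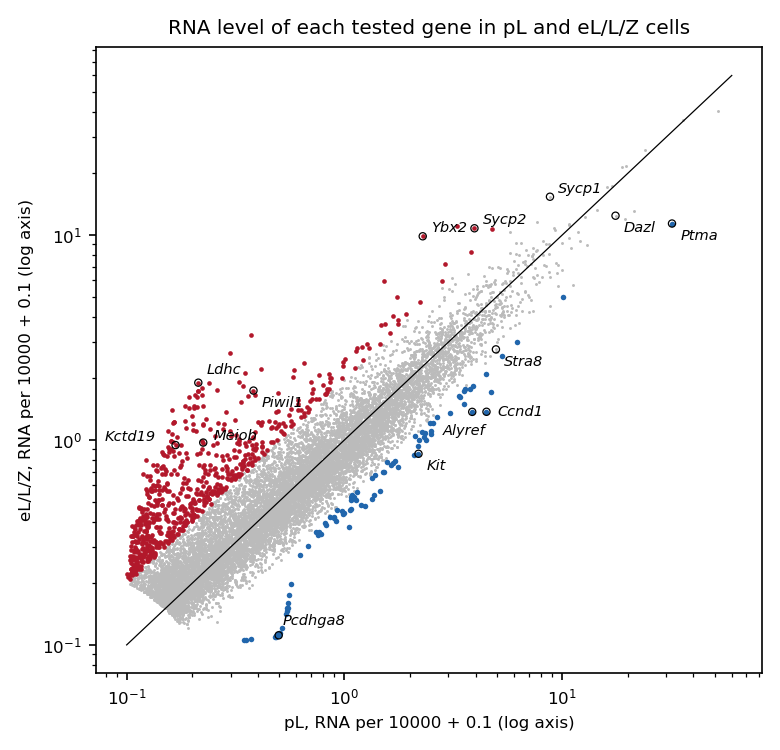
RNA level of each of the 12986 tested genes in pL (x axis) and eL/L/Z (y axis), per 10000 plus 0.1 on log axes. Red points are the 672 genes at least 2-fold higher in eL/L/Z, blue points the 90 at least 2-fold lower, and the line marks equal levels; the red points crowd at low pL levels, and Ptma, at 31.8 in pL, is the most abundant blue point.

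The 672 genes were chosen for a pL level below that of eL/L/Z, and the 90 for the reverse, so comparisons of either level with other populations are descriptions that the choice itself moves. In undiff. SpG, 617 of the 672 genes (91.8%) exceeded their pL level, against 49.4% of all genes tested. In L/Z/eP, a population outside this comparison, 621 of the 672 genes (92.4%) exceeded their eL/L/Z level, against 35.0% of all genes tested. The highest of the 13 populations was middle and late pachytene (mP/lP) for 318 of the 672 genes (47.3%, against 10.7% of all) and RS for 136 (20.2%, against 9.62%). Cmah, which makes a sialic acid form, was the only one of the 672 with its highest level in eL/L/Z, at 0.19 per 10000 against 0.01 in pL and 0.04 in L/Z/eP. Sertoli cells had a higher level than eL/L/Z for 96 of the 672 genes (14.3%, with 32.6% over all genes tested), and at least 1 of the 3 somatic populations for 519 (77.2%, against 58.8% of all genes tested). Diff. SpG, whose column held Prm1 at 3.94 and Ldhc at 3.44, exceeded eL/L/Z for 408 of the 672 and for 6217 of the 12986 genes tested; the part of these other cells' RNA in the result was not tested.

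The 90 genes of lower RNA moved on in the same sense: all 90 were lower again in L/Z/eP than in eL/L/Z, against 65.0% of all genes tested. By the same choice, for 50 of them (55.6%, with 13.5% of all) pL was the highest of the 13 populations, and for 13 (14.4%, against 9.89%) undiff. SpG. The 21 highest in RS were the Pcdhg genes, a single locus described further on.

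Many of these genes also had RNA in somatic cells or spermatids. Without genes whose level in a somatic population, RS or elongating spermatids (ES) exceeded that in eL/L/Z, an alternative chosen after seeing the data, 35 of 4107 genes were at least 2-fold higher and 37 at least 2-fold lower. This filter uses the eL/L/Z level, which is also the numerator of the ratio, so it keeps genes of higher and drops genes of lower eL/L/Z level and the counts are a description only. Among the 35, named after their values were seen, were Meiob, which binds single-stranded DNA during strand exchange, Sycp2 and Fbxo47 of the chromosome axis and its regulation, Rad51ap2, Mcmdc2, the helicase gene Hfm1, the cyclin gene Ccnb3, the transcriptional regulator genes Mybl1 and Zfp541, and Tdrd5. Glis3, Kcnc2 and Ttn were also among them and were highest in undiff. SpG, at 5.38, 3.15 and 1.10 per 10000. Meiob had the largest ratio of the 35, at 0.12 in pL, 0.87 in eL/L/Z and 1.59 in L/Z/eP, with 0.045 in Sertoli cells.

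**Figure D3:**
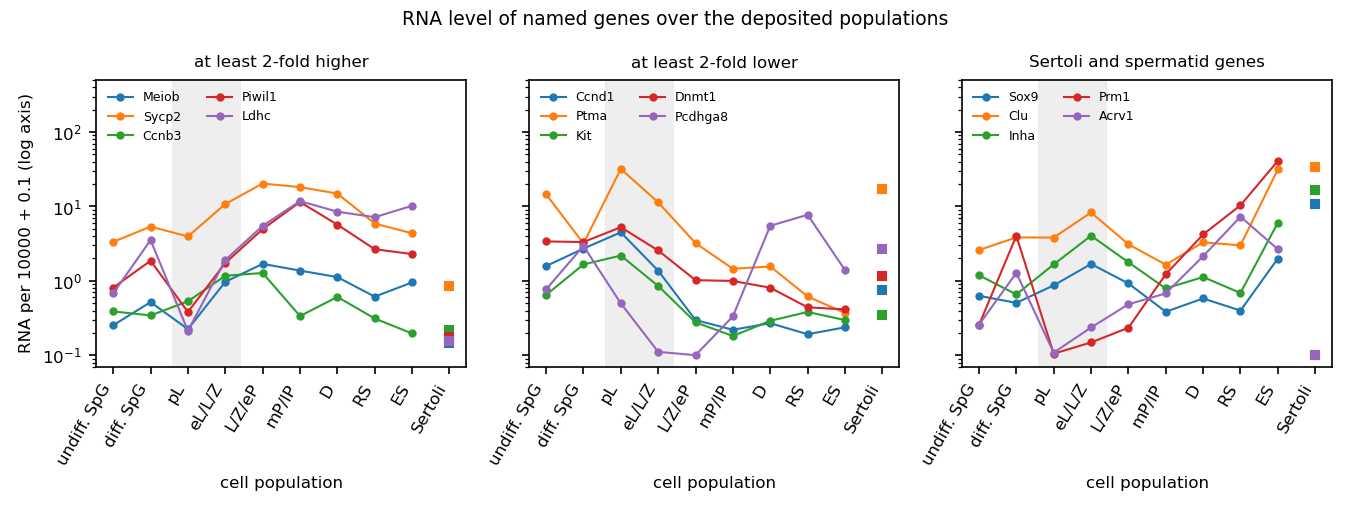
RNA level per 10000 plus 0.1 (log axis) of 15 genes over the 9 germ cell populations in order of development, with Sertoli cells as separate squares and pL and eL/L/Z shaded. Meiob, Sycp2, Ccnb3, Piwil1 and Ldhc climb through the shaded step, Ccnd1, Ptma, Kit and Dnmt1 drop through it, and the Sertoli genes Sox9, Clu and Inha peak locally at eL/L/Z.

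Most of the tested precursors of pachytene piRNAs were higher in RNA. These long transcripts are cut into the small RNAs that PIWI proteins carry in spermatocytes, and A-MYB, the product of Mybl1, is known to drive their transcription. The matrix names 100 such loci by chromosome band. Of the 86 tested, 70 were at least 2-fold higher and none at least 2-fold lower, with a median log2 ratio of 1.83 against 0.01 for all genes tested. Their summed level was 10.8 per 10000 in pL, 57.8 in eL/L/Z, 215 in L/Z/eP, then 437 once cells reached mP/lP, with 5.17 in Sertoli cells and 60.2 in diff. SpG.

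Where the mean level reached 0.5, the largest log2 ratio was that of Ldhc, the germ cell lactate dehydrogenase, with 0.11 per 10000 in pL and 1.80 in eL/L/Z and a log2 ratio of 3.16. Behind it, a piRNA locus in band qF1 of chromosome 2 had a log2 ratio of 3.14, with 0.20 in pL and 2.54 in eL/L/Z. A locus in band qB4 of chromosome 10 was more abundant in both populations, at 0.27 and 3.15, with a log2 ratio of 3.12. The rest of the 12 largest were Gm2762, Ankrd36, 1700026D11Rik, 1700008K24Rik and loci on chromosomes 7, 12, 13, 14 and 17, with log2 ratios of 2.94 to 3.10. The chromosome 17 locus and 1700008K24Rik had identical RNA levels in every population and are 1 locus listed under a pair of names.

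Genes that act on piRNAs were higher in part. Of 28 tested PIWI and piRNA pathway genes, 3 were at least 2-fold higher (5.17% of all genes) and none at least 2-fold lower (0.693%), and the median was 0.41. Piwil1, the PIWI protein of pachytene, was at 0.28 in pL and 1.64 in eL/L/Z (log2 ratio 2.19), Tdrd6 at 0.02 and 0.30 (1.71), and Tdrd5, which channels precursors into processing, at 0.26 and 0.76 (1.24). Fkbp6 was lower, at 7.26 and 4.14 (-0.79), and Piwil2, already present in spermatogonia, was at 2.02 and 2.62 (0.36).

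Transcriptional regulators of prophase formed the highest list among those of meiosis. Of 18 tested, 7 were at least 2-fold higher and none at least 2-fold lower, with a median of 0.68. Kctd19, whose product works with that of Zfp541 in pachytene gene control, had 0.07 per 10000 in pL and 0.84 in eL/L/Z (log2 ratio 2.49). Ybx2, a germ cell RNA- and DNA-binding protein, reached the highest level of the list, at 2.19 and 9.75 (2.11). Rfx4 (1.43), Mybl1 (1.24), Brdt (1.22), Zfp541 (1.09) and Hsf5 (1.08) were the other five. Patz1 was the lowest of the list, at 0.89 and 0.55 (-0.62).

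Components of the synaptonemal complex and its axis were higher as a list, mostly by less than 2-fold. Of 13 tested, 2 were at least 2-fold higher (5.17% of all genes) and 10 had a log2 ratio above 0, with a median of 0.56. Sycp2, an axis protein, was at 3.85 per 10000 in pL and 10.7 in eL/L/Z (log2 ratio 1.45), and Fbxo47 at 0.46 and 1.22. The transverse filament gene Sycp1 was at 8.68 and 15.3 (0.81) and the axis gene Sycp3 at 1.20 and 2.42 (0.96). The pL level of Sycp3 was close to that of the unknown somatic cells (1.17) and below that of the Nfya-CKO somatic cells. Trip13, the ATPase that removes HORMA proteins from synapsed axes, went the other way, at 1.31 and 0.81 (-0.64).

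The recombination lists had medians near 0, with members in both directions. Among 14 tested genes of DNA break formation, Morc2b (0.02 and 0.32, log2 ratio 1.86) and Spo11 itself (0.10 and 0.36, 1.22) were at least 2-fold higher, whereas Rec114, which with MEI4 helps SPO11 act, was at 0.39 and 0.24 (-0.54), and the list's median was 0.10. Prdm9, the methyltransferase that places the break sites, was at 0.97 in pL and 1.16 in eL/L/Z (0.24).

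Among 25 tested strand-exchange genes the median was 0.01 and 3 genes were at least 2-fold higher: Meiob (2.11), Rad51ap2 (0.13 and 0.52, 1.42) and Mcmdc2 (0.10 and 0.33, 1.07). The recombinase gene Dmc1 was at 1.79 and 2.22 (0.30). All 3 subunit genes of the general single-strand binding complex RPA were lower: Rpa1 (-0.40), Rpa2 (-0.64) and Rpa3 (-0.63).

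Among 18 tested crossover genes, Cntd1 (0.22 and 0.87, log2 ratio 1.59) and Hfm1 (0.72 and 1.57, 1.03) were at least 2-fold higher, and the median was 0.08. Msh4 and Msh5, which stabilise crossover intermediates, had log2 ratios of 0.77 and 0.88. Tex15, the most abundant of the list, was at 16.8 and 17.3.

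Of 14 tested telomere attachment genes, Ccdc155 (also named Kash5), which links telomeres to dynein, was the only one at least 2-fold higher, at 0.25 in pL and 0.83 in eL/L/Z (log2 ratio 1.40). None of 17 cohesin genes was past 2-fold in either direction, and their median was -0.03. Nipbl, the cohesin loader, came closest at 3.01 and 6.04 (0.98), while the meiotic subunit genes Smc1b (0.13), Stag3 (0.27) and Rec8 (-0.03) were close to level.

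**Figure D4:**
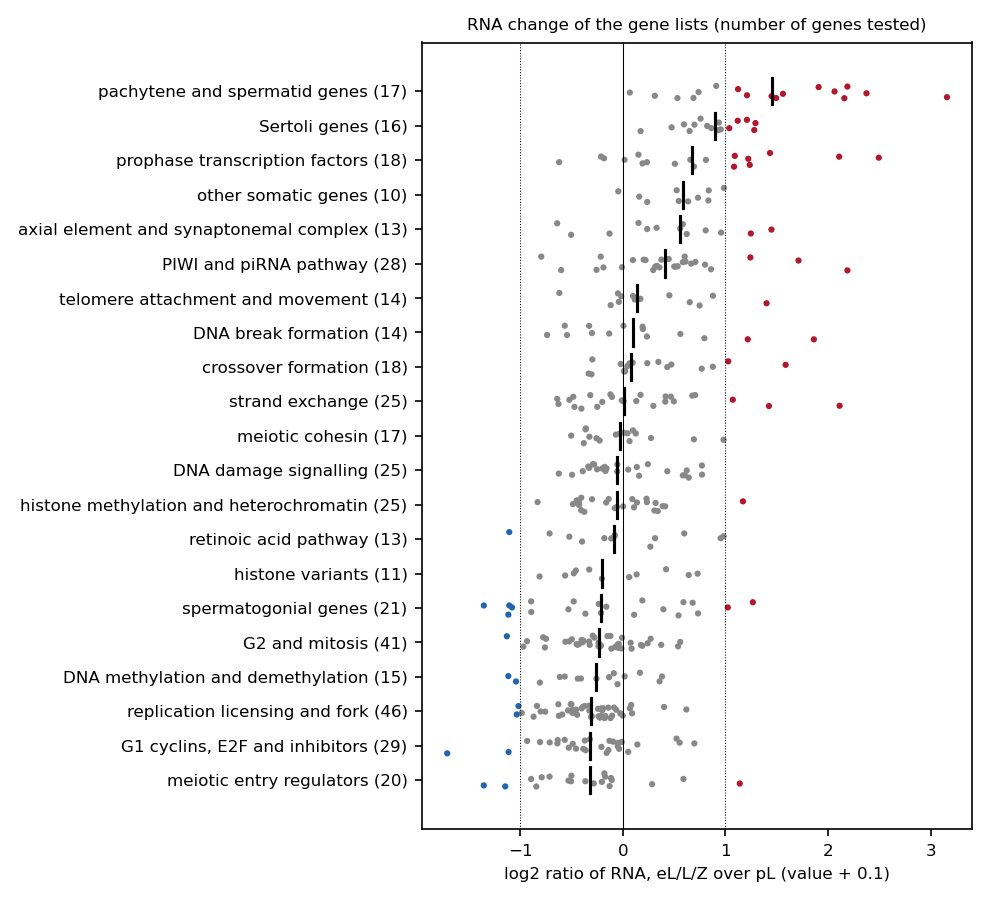
Log2 ratio of RNA, eL/L/Z over pL, of each tested member of 21 gene lists; each point is a gene, black bars are list medians, dotted lines mark 2-fold, and the number of tested genes stands after each name. The pachytene and spermatid list (median 1.45) and the Sertoli list (0.90) lie above the prophase transcription factors (0.68), and the meiotic entry regulators and the G1 list (both -0.32) lie at the bottom, in an order that changes with the settings; with a pseudocount of 0.5 the medians of these first 3 lists are 0.60, 0.68 and 0.37.

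Regulators of the decision to enter meiosis were mostly lower in eL/L/Z than in pL. The list also holds the NF-Y subunit genes Nfya, Nfyb and Nfyc, which were all lower and are given below. Of 20 tested, 17 had a log2 ratio below 0 (49.2% of all genes), with a median of -0.32; Kit and Dmrtb1 were at least 2-fold lower and Ccnb3, a cyclin of meiotic prophase, at least 2-fold higher. Stra8 was at 4.86 per 10000 in pL and 2.67 in eL/L/Z (log2 ratio -0.84). Meiosin, listed as Gm4969, was low in both, at 0.22 and 0.28 (0.29).

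Dmrtb1, which times the switch from mitosis to meiosis, was at 1.03 and 0.41 (-1.14), and its relative Dmrt1 at 4.31 and 2.27 (-0.89). Dazl, the RNA-binding licensing factor, stayed among the most abundant transcripts at 17.5 and 12.3 (-0.50). Ccnb3 was at 0.43 and 1.07 (1.14).

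The NF-Y subunit genes differed by less than 2-fold. Nfya was at 0.41 per 10000 in pL and 0.38 in eL/L/Z (log2 ratio -0.11), Nfyb at 0.84 and 0.44 (-0.79), and Nfyc at 1.73 and 1.40 (-0.28). Nfyb, one of the histone-fold subunits, was thus the lowest of the 3 relative to pL.

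The genes of lower RNA included cell cycle, DNA methylation and some spermatogonial genes. Ccnd1, the G1 cyclin D1, had the lowest ratio at mean levels of 0.5 and above, at 4.39 per 10000 in pL and 1.27 in eL/L/Z (log2 ratio -1.71), and it was at 0.20 in L/Z/eP. Ptma, a histone-binding nuclear protein, was the most abundant, at 31.8 and 11.3 (-1.49). Alyref, an mRNA export adaptor, was at 3.76 and 1.27 (-1.49).

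The other nine of the 12 lowest were Fbln1 (-1.47), Esx1 (-1.47), Runx3 (-1.39), Serpine2 (-1.38), Ulk3 (-1.37), Kit (-1.35), Ppil1 (-1.33), Fam199x (-1.31) and Csnk1e (-1.29). Kit was at 2.09 in pL and 0.76 in eL/L/Z. In Sertoli cells Serpine2 was at 1.30, above both its pL level (1.14) and its eL/L/Z level (0.38), and Ptma, Ulk3, Ppil1 and Csnk1e were above their eL/L/Z but below their pL level.

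Genes of replication were lower together, by small steps. Of 46 tested, 40 had a log2 ratio below 0 (49.2% of all genes), with a median of -0.31; Fen1 (2.38 and 1.11, -1.03) and Rrm2 (0.99 and 0.44, -1.02), a flap nuclease and a subunit of the enzyme that makes deoxynucleotides, were at least 2-fold lower. The helicase genes Mcm2 (-0.98), Mcm4 (-0.87) and Mcm3 (-0.76) followed. Pola1, the catalytic subunit of the primase-polymerase, was the highest of the list, at 0.39 and 0.65 (0.62).

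G1 cyclin, E2F and inhibitor genes had a median of -0.32 over 29 tested, with Ccnd1 and E2f2 (0.67 and 0.26, -1.11) at least 2-fold lower and none at least 2-fold higher. Cdkn1b, the inhibitor p27, was the highest at 0.25 and 0.46 (0.70). Among 41 tested G2 and mitosis genes the median was -0.24, Ccna2 (2.09 and 0.90, -1.13) was at least 2-fold lower, and Mki67 was at 4.24 and 5.52 (0.37).

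Of 15 tested DNA methylation and demethylation genes, 2 were at least 2-fold lower: the maintenance methyltransferase gene Dnmt1, at 5.17 and 2.46 (-1.04), and the de novo methyltransferase gene Dnmt3b, with a log2 ratio of -1.11. Uhrf1, the partner of DNMT1, was at 1.79 and 0.98 (-0.81). Among 25 heterochromatin and histone methylation genes only the H3K9 demethylase gene Kdm3a was past 2-fold, at 0.61 and 1.49 (1.17), and the median was -0.06.

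Spermatogonial genes went both ways, with 4 of 21 tested at least 2-fold lower and 2 at least 2-fold higher. Kit, Dnmt3b, Crabp1 (1.57 and 0.67, log2 ratio -1.11) and Sox3 (3.31 and 1.51, -1.08) were lower. Ret, the GDNF receptor of stem cells, was at 0.06 and 0.23 (1.02) and Id4, a stem cell regulator that was highest in mP/lP among all populations, at 0.10 and 0.39 (1.27). Over the list 12 genes were lower and 9 higher, with a median of -0.21. Besides Id4, the markers chosen for undiff. SpG were also higher: Zbtb16 at 1.14 and 1.32, Gfra1 at 0.04 and 0.13, and Etv5 at 0.05 and 0.13. Ccnd2, highest in undiff. SpG, was at 1.24 and 1.82. The part of RNA from such cells was not tested.

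Other lists stayed within 2-fold for nearly all members. No gene of 25 in DNA damage signalling and none of 11 histone variant genes was past 2-fold. Of the 25, 14 were lower (49.2% of all genes), with a median of -0.05 and a lowest log2 ratio of -0.62. Of the 11, 6 were lower, with a median of -0.20 and a lowest of -0.81. Among the higher members, the checkpoint kinase gene Atr and the adaptor gene Mdc1, which act on unsynapsed chromosomes, both had log2 ratios of 0.77. H2afx, which encodes H2AX, had 0.64. Among 13 retinoic acid pathway genes Crabp1 was the only one past 2-fold. Ribosomal protein genes were lower for 73 of 85 tested (49.2% of all genes), with a median of -0.35 and a sum of 203 per 10000 in pL and 157 in eL/L/Z.

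The clustered protocadherin genes Pcdhg, cell surface proteins best known from neurons, made up 21 of the 90 lower genes. Their gene models overlap and share 3' exons, and their levels were close to each other (0.24 to 0.47 in pL, 7.21 to 8.45 in RS), so they stand for 1 locus rather than 21 results. Pcdhga8 was at 0.40 per 10000 in pL, 0.01 in eL/L/Z, 0.00 in L/Z/eP and 7.63 in RS, with a log2 ratio of -2.16, and the 21 genes had a median of -2.09. With this locus and identical entries counted once, 70 loci were at least 2-fold lower and 670 at least 2-fold higher.

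Accessibility was measured relative to a total that itself differed. The 13 mitochondrial genes took 31.2% of the scATAC-seq matrix total in pL and 45.4% in eL/L/Z, and the median log2 ratio of nuclear genes was -0.27. On this scale 183 genes (0.605% of those tested) were at least 1.5-fold higher in eL/L/Z and 4366 (14.4%) at least 1.5-fold lower. With the total taken over nuclear genes alone the median was -0.00, and 887 genes (2.93%) were at least 1.5-fold higher and 703 (2.32%) at least 1.5-fold lower. Accessibility ratios below are therefore given relative to the median of -0.27, as relative log2 ratios, beside the levels per 1000000.

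The relative ratio also depended on signal: by decile of mean signal its median was 0.24 in the lowest, -0.23 in the sixth and 0.05 in the highest. The central 90% of genes lay between -0.49 and 0.48.

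Where mean accessibility reached 20 per 1000000, the 6 largest gains included 3 histone genes. The 19 histone variant genes as a list had a median relative log2 ratio of 0.04. Of these 19, 1 was at least 1.5-fold higher on the full total (0.605% of all genes tested) and 2 on the nuclear total (2.93% of all). Hist1h1t, the testis-specific linker histone gene expressed in pachytene, was at 19.2 per 1000000 in pL and 32.0 in eL/L/Z (relative log2 ratio 0.98), while its RNA, at 0.002 and 0.01 per 10000, was too low to be tested. Hist1h1d (23.3 and 34.0, 0.79) and Hist1h4f (17.9 and 25.9, 0.77) were the other two. Gm32856 (14.3 and 26.6, 1.12) and Gm31793 (15.9 and 29.4, 1.11) were the largest.

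Adad1, an RNA-binding protein gene of spermatids, was the only one of the 6 largest gains tested in RNA, at 20.6 and 28.1 per 1000000 (relative log2 ratio 0.70) and 0.70 and 1.76 RNA per 10000. The 6 largest losses were Ctxn3 (44.8 and 17.3, relative log2 ratio -1.06), Pramef12, Gm31374 (-0.88), Gm44210 (-0.86), Irf1 (-0.86) and Ptf1a (-0.86). Irf1, an interferon response factor, lost accessibility from 51.5 to 23.1 per 1000000 while its RNA was at 0.18 in pL and 0.31 in eL/L/Z.

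RNA and accessibility differences were weakly related over all genes, with larger accessibility ratios among the genes of largest RNA difference. Across the 12966 genes with both values Pearson's r was 0.25 and Spearman's rho 0.14, a description over genes that share libraries and are not independent. The 113 genes with an RNA log2 ratio above 2 had a median relative accessibility ratio of 0.50, the 559 genes between 1 and 2 had 0.08, and the 11 genes at or below -2, all of the Pcdhg locus, had -0.55. Genes within 0.5 of level had -0.02. The Pcdhg genes are a single locus, and 70 piRNA loci named by band were among the genes at least 2-fold higher in RNA. No value was computed without these sets.

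In joint counts, 65 genes (0.501%) were higher in both RNA and accessibility, 42 (0.324%) lower in both, 44 (0.339%) higher in RNA and lower in accessibility, and 0 (0%) lower in RNA and higher in accessibility. With nuclear genes as the total these counts were 119 (0.918%), 4 (0.0308%), 4 (0.0308%) and 0 (0%). The group of opposite direction thus dropped from 44 to 4 with the scaling, and the group higher in both grew from 65 to 119. The counts of 0 rest on only 90 genes of lower RNA. Over all genes with both values, accessibility was at least 1.5-fold higher for 0.563% on the full total. The 65 became 10 with an accessibility pseudocount of 5 and 2 where mean accessibility reached 10 per 1000000. On the nuclear total, accessibility was at least 1.5-fold higher for 17.7% of the 672 genes of higher RNA and for 1.54% of all genes with both values.

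Of the 86 piRNA loci named by band and tested in RNA, 48 were at least 1.5-fold more accessible on the nuclear total. Among all genes with both values the share was 1.54%. On the full total 34 of the 86 were, against 0.563% of all genes with both values. Of all genes tested for accessibility on that total, 5 were at least 1.5-fold higher where mean accessibility reached 10 per 1000000. Most of the 34 loci therefore had less signal than that, and the shares over all genes were not matched for signal. The median relative log2 ratio of the 86 was 0.62. The 114 tested piRNA genes with names in pi- differed from these, with 8 at least 2-fold higher and 1 at least 2-fold lower in RNA, a median RNA log2 ratio of -0.15 and a median relative accessibility ratio of 0.01. The 6 largest sums of both ratios were a pair of loci in band qE of chromosome 12, those on chromosomes 7 and 17 named before, Mroh4 and its piRNA entry. The first chromosome 12 locus was at 1.02 per 1000000 in pL and 4.86 in eL/L/Z (relative log2 ratio 1.80), with RNA of 0.09 and 1.52 per 10000. Mroh4 and its piRNA entry had equal RNA levels in every population and count as 1 locus.

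The gain was not shared by every such locus: the chromosome 10 locus in band qB4 was at 94.4 and 84.5 per 1000000 (0.11). Piwil1 (-0.16) and Ybx2 (0.06) were likewise near the median in accessibility although their RNA log2 ratios exceeded 2.

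Single meiotic genes had higher ratios, whereas most meiotic lists lay near the median of all genes. Meiob had a relative log2 ratio of 0.59, Morc2b 0.65, Ccnb3 0.64, Rad51ap2 0.52, Hsf5 0.51, Sycp2 0.44 and Kctd19 0.40. The synaptonemal complex list had a median of 0.28 over 13 genes and the prophase transcription factors 0.13 over 18, beside -0.02 for all 12966 genes with both values. The medians of the other meiotic lists were -0.02 for DNA break formation, -0.02 for strand exchange, 0.01 for crossover formation, 0.02 for cohesin, -0.06 for telomere attachment and -0.03 for the entry regulators. On the losing side Kit (-0.52), Ccnd1 (-0.54), E2f2 (-0.58), Dmrt1 (-0.46) and Stra8 (-0.38) lay below the median.

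The 6 lowest sums of both ratios were all Pcdhg genes, and Pcdhga8 was at 15.1 and 7.64 per 1000000 (relative log2 ratio -0.63). Of the 6 largest gaps in opposite directions, A830018L16Rik (8.24 and 4.23 per 1000000, RNA 0.04 and 0.38) and Elfn2 (31.9 and 17.8 per 1000000, RNA 0.02 and 0.33) were the most apart in accessibility. The other four were 4931409K22Rik, Ttll6, 1700010B08Rik and a piRNA locus on chromosome 14, with relative log2 ratios of -0.54 to -0.36; none of the 6 was 1.5-fold lower on the nuclear total.

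**Figure D5:**
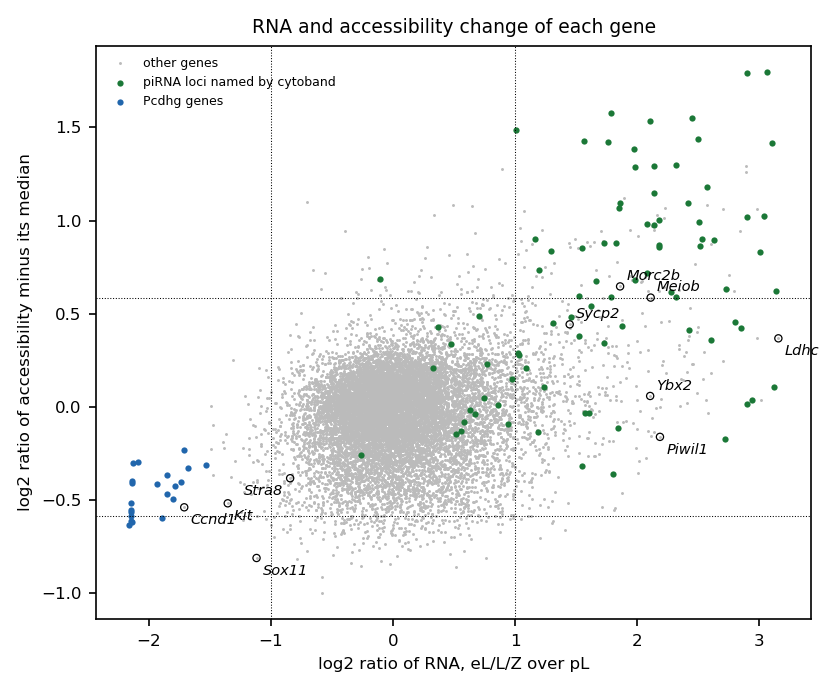
Log2 ratio of RNA (x axis) against the log2 ratio of accessibility minus its median of -0.27 (y axis) for each of 12966 genes, eL/L/Z over pL. Green points are piRNA loci, blue points the Pcdhg genes, and dotted lines mark 2-fold and 1.5-fold. Most green points lie above the centre on both axes. The lower right corner holds 7 genes, and the upper left 0 of the 90 genes of lower RNA.

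Promoters of 4 genes with the motifs searched in capitals are shown from the RefSeq table of GRCm38.p6, each from 250 bases before to 50 after the annotated start. They stand for a regulator of lower RNA and accessibility with several CCAAT boxes (Stra8), a regulator with the same motif and higher RNA (Ybx2), an axis gene with several motif types (Sycp3) and the linker histone gene of larger accessibility (Hist1h1t, named H1f6 in RefSeq). The windows are chr6:34920698-34920997 on the plus strand for Stra8, chr11:69935649-69935948 plus for Ybx2, chr10:88459337-88459636 plus for Sycp3 and chr13:23695561-23695860 plus for Hist1h1t.
Stra8: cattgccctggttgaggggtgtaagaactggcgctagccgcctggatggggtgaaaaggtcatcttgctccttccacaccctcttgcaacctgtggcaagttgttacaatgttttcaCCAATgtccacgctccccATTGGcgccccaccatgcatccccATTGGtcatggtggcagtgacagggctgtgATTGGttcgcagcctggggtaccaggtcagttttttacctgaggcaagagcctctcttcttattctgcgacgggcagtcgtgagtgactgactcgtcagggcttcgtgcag
Ybx2: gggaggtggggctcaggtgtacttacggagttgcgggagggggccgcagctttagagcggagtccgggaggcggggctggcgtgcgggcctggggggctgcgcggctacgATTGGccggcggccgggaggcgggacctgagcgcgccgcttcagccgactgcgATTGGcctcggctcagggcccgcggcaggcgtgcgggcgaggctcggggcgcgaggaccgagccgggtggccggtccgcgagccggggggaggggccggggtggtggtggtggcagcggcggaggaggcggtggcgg
Sycp3: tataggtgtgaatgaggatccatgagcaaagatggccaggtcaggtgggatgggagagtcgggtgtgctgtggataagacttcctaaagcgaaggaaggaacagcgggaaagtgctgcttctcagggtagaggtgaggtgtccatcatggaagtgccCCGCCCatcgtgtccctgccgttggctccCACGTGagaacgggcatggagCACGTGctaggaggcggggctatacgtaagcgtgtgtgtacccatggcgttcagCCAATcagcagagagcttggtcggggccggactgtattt
Hist1h1t: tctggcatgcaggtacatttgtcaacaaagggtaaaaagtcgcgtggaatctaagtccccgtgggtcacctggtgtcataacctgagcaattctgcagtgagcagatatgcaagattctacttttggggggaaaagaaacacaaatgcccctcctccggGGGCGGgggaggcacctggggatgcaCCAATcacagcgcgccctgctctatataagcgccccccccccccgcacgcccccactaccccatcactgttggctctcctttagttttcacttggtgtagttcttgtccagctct
Capitals mark CCAAT (the NF-Y box), CNCCTCAG, TTTNGCGC, TGACGTCA, GGGCGG (the Sp box) and CACGTG (the E-box), searched on both strands, so that ATTGG is CCAAT on the other strand. The Stra8 window holds CCAAT 4 times, that of Ybx2 2 times, and those of Sycp3 and Hist1h1t 1 time each.

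CCAAT was about as frequent among promoters of either direction as among all. A promoter was matched for 10002 of the tested genes, and 39.5% of them held CCAAT, against 41.6% (183 of 440) for genes of higher RNA and 43.1% (25 of 58) for genes of lower RNA. GGGCGG was held by 65.4% of all, 43.2% of the higher and 70.7% of the lower group. The median GC content was 61.3% in all, 56.0% in the higher and 66.2% in the lower group, so base composition differed in the same sense. CACGTG was held by 10.6%, 8.41% and 17.2%, and CNCCTCAG, known as a STRA8 motif, by 9.57%, 7.27% and 3.45%. TTTNGCGC, an E2F-type site, was held by 2.58%, 2.05% and 3.45%, and TGACGTCA, the CRE, by 3.37%, 2.05% and 0% (0 of 58, exact 95% interval up to 6.16%).

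X-linked genes had a higher median accessibility ratio than every autosome and, by a small margin, a lower median RNA ratio. Over 449 X-linked genes the median RNA log2 ratio was -0.07, below all 19 autosomes (-0.05 to 0.05). Of these X-linked genes 11 (2.45%) were at least 2-fold higher, against 2.77% to 6.46% per autosome and 5.17% of all genes tested. Over 942 X-linked genes the median relative accessibility ratio was 0.20, above all 19 autosomes (-0.09 to 0.06). X-linked genes had less signal, a median of 4.74 per 1000000 against 12.9 for autosomal genes. By decile of signal, the X median exceeded the autosomal one by 0.22 to 0.31 in deciles 1 to 7. In deciles 8 to 10, with 58, 16 and 2 X-linked genes, the excess was 0.13, 0.10 and 0.02. The 55 Y-linked genes had a median relative ratio of 0.32.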

How the data were processed

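Cell populations were those named by the authors. Per the study's methods, the authors aligned scRNA-seq reads to mm10 with STAR v2.7.10b and scATAC-seq reads with BWA v0.7.12, removed duplicates by UMI and position, shifted the scATAC-seq ends with BEDTools v2.27.1, and named populations with Seurat v5.2.1 and ArchR v1.0.3, with doublets removed. The deposited matrices hold the natural log of 1 plus a mean that sums to 10000 per population. For promoters the study defines accessibility as mean normalised coverage in a window around the transcription start. Whether the gene value of the deposited scATAC-seq matrix was made that way is not given in the sources used here. The deposited cell tables give counts of UMIs, genes and fragments, the TSS ratio and the percent of mitochondrial UMIs.

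Values were converted by exp(value) - 1, and accessibility was scaled to 1000000, with Python 3.11, numpy, pandas and scipy. Genes at least 2-fold (RNA) or 1.5-fold (accessibility) apart were counted by size, since no test is possible. Named genes were the 12 largest RNA differences each way with a mean of at least 0.5, the 6 largest accessibility differences each way with a mean of at least 20, the 6 largest joint sums and gaps, members of 22 lists by role, and Stra8, Meiosin and the NF-Y genes. The members and lists were chosen with earlier results of these data known. A chromosome was matched for 12337 tested genes through RefSeq symbols or single synonyms. Ratio and count functions were tested on simulated data. The cell tables held 14 further value columns, which were not used here. RNA of the study's own gene categories was computed but is not reported, because the category lists used here were shortened. Some items are not reported here.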

Additional observations from a re-analysis of the deposited data

How the results depend on the processing

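No paired analysis was possible because each matrix holds 1 value per population pooled over libraries, so counts could also not be recomputed without a library. The accessibility ratio of Nfya, -0.30, became 0.03 on the nuclear sum, and that of Nfyc, -0.10, became 0.15 on it and 0.17 centred on the median; no other gene of the largest single-measure differences, Stra8, Meiosin or Nfyb changed sign. The RNA median of the pachytene and spermatid list, 1.45, was 2.07 and 0.60 with pseudocounts of 0.02 and 0.5 and 0.69 with no filter, and that of the prophase factors, 0.68, was 0.37 with 0.5. With no filter the medians of the spermatogonial and histone variant lists, -0.21 and -0.20, both became 0.06. With a pseudocount of 0.5 the synaptonemal complex median went from 0.56 to 0.31 and the PIWI and piRNA one from 0.41 to 0.26. The entry regulators went from -0.32 to -0.20, the G1 list from -0.32 to -0.19 and the replication list from -0.31 to -0.20. The 672 genes of higher RNA became 1335 with a pseudocount of 0.02, 115 with 0.5, 413 with a mean of at least 0.2, 1785 at 1.5-fold, 224 at 3-fold and 35 without genes higher in somatic cells or spermatids. The 90 of lower RNA became 203 and 6 with these pseudocounts, 690 and 21 at these folds, 49 without genes higher in Sertoli cells and 37 without those higher in somatic cells or spermatids; the leaving out of genes was chosen after seeing the data and tests fewer genes. The 183 genes of higher and 4366 of lower accessibility became 974 and 7044 with a pseudocount of 0.1, 21 and 1741 with 5, 887 and 703 on the nuclear sum, 811 and 666 centred on the median, 5 and 2792 where the mean reached 10, 795 and 12685 at the lower fold limit, and 32 and 105 at 2-fold. Genes higher in both were 24 with an RNA pseudocount of 0.5, 43 with an RNA mean of at least 0.2, 10 with an accessibility pseudocount of 5, 119 on the nuclear sum, 110 centred and 2 with an accessibility mean of at least 10. Genes of higher RNA and lower accessibility were 164 and 1 with RNA pseudocounts of 0.02 and 0.5, 25 with the higher RNA mean, 18 with an accessibility pseudocount of 5, 4 on the nuclear sum and 7 centred; genes lower in both were 88 and 2 with the RNA pseudocounts, then 27, 4 and 9. The cause was not tested.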
